A study of Homo sapiens with 6 samples.

Results

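The HES and HEY families, with NRARP, hold the best known direct targets of Notch signaling, though not every member is an established one. The 9 genes described here are HES1, HES2, HES4, HES6, HES7, HEY1, HEY2, HEYL and NRARP, which were taken by gene symbol from the 29153 genes listed in the deposited table of HepG2 cells. HepG2 is an established human liver cancer cell line. Cells were infected for 72 h with lentivirus that carried either a control short hairpin RNA (sh-NC, 3 libraries) or a hairpin against the long noncoding RNA LINC01977 (sh-LINC01977, 3 libraries), and total RNA was sequenced. Both groups were thus infected, and the knockdown group carried a single hairpin, which the sample titles call sh3. Total counts lay between 49929024 and 60441515 per library. LINC01977, the targeted gene, was counted 4, 0 and 16 times in sh-NC cells and 0, 0 and 4 times in sh-LINC01977 cells. Its log2 fold change of -2.12 had a 1.96 standard error (edgeR adjusted p = 0.580), so a knockdown could not be detected at this depth and the groups rest on the labels in these data. The paper reports a check of the knockdown by qRT-PCR in HepG2 cells. Leaving out single libraries moved the log2 fold change of LINC01977 between -5.73 (sh-LINC01977 replicate 3 left out) and -0.52 (sh-NC replicate 3 left out).

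When a ligand on a neighbouring cell binds a Notch receptor, proteases release the intracellular domain of the receptor, which enters the nucleus and joins the DNA-binding protein RBPJ and a Mastermind coactivator to switch on target genes. The HES and HEY proteins are basic helix-loop-helix repressors that recruit corepressors, in the case of HES proteins those of the TLE family. These repressors silence genes of differentiation, and NRARP is an ankyrin-repeat protein that dampens Notch signaling in return. HES6 stands apart in the family, since it is known to counteract HES1 and is often controlled by other inputs. In the liver, Notch signaling is known for guiding progenitors toward the bile duct fate.

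The promoters of the 4 genes that were well expressed in HepG2 are shown, because they differ in the letters that RBPJ is known to recognize. Each line holds the last 120 bases up to the RefSeq start site in GRCh38.p14, read 5′ to 3′ on the strand of the gene, and capitals mark TGGGAA, the core of the RBPJ motif.
HES1 (chr3:194136028-194136147, plus strand): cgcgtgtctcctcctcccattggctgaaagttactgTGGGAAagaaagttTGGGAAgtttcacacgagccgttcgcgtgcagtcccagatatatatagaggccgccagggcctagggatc
HES4 (chr1:1000098-1000217, minus strand): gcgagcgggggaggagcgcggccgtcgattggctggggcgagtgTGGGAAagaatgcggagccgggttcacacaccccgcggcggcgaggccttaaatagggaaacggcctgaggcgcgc
HES6 (chr2:238240039-238240158, minus strand): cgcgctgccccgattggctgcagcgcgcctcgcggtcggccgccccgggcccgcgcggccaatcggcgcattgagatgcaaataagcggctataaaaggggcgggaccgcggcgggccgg
NRARP (chr9:137302272-137302391, minus strand): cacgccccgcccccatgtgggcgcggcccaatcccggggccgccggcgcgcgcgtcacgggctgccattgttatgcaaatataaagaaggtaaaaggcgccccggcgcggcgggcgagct

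TGGGAA was searched on both strands (TTCCCA on the other strand) in windows of 300 bases, 250 before and 50 after the start site, for the 8 of 9 genes matched in the RefSeq table. HEY1 had no matching entry. The HES1 window held 2 matches, which begin 84 and 70 bases before the start, and the HES4 window held 1 match, 76 bases before it. HEY2 and HEYL held 2 matches each, whereas HES2, HES6, HES7 and NRARP held none. Only 1 start site per gene was searched. The windows of HES2, HES6, HEY2 and HEYL lie wholly inside the deposited gene spans, and other starts of these genes were not searched. Of 27305 promoter windows of this length, 24.3% held at least 1 match and 3.81% held 2 or more. The other motif was CACNAG, the N-box that HES proteins are known to bind, again searched on both strands with N as any base. It occurred 4 times in the HES1 window and once each in those of HES2, HES7 and NRARP, against 38.0% of all windows with at least 1 match and 8.85% with 2 or more. No match of one motif overlapped a match of the other in these windows. The matches describe letters in these windows and not bound sites.

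HepG2 cells expressed 4 of the 9 genes at a mean of at least 0.5 FPKM (fragments per length of transcript and size of library, the deposited level), namely HES1, HES6, NRARP and HES4. The other 5, HEY1, HES2, HEYL, HES7 and HEY2, lay under that filter, which 13452 of all 29153 genes passed. In sh-NC cells the order of FPKM levels was HES1, HES6, NRARP, HES4, HEY1, HES2, HEYL, HES7 and HEY2. The libraries of neighbours in this order overlapped for HES1 and HES6 and for HES2 and every gene after it, and were separate elsewhere. By mean FPKM over the 6 libraries, HES1 stood at the 85.2 percentile of all listed genes, HES6 at 80.9, NRARP at 77.4, HES4 at 72.5 and HEY1 at 51.7. In sh-LINC01977 cells HES1 was separate from HES6, whereas HES6 and NRARP overlapped. HEY1 and HES2 also overlapped there, and HES7 ranked before HEYL.

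**Figure D1:**
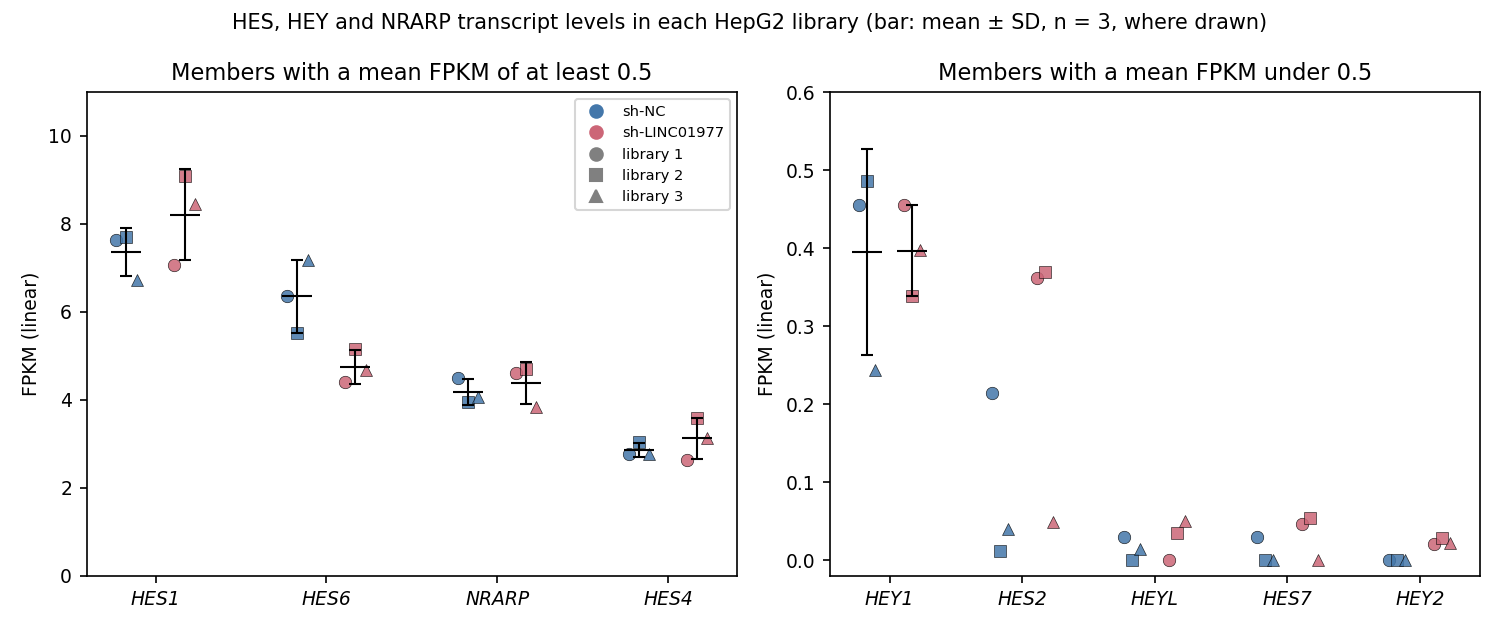
FPKM of each gene (vertical axis, linear) in every library, with blue points for sh-NC, red points for sh-LINC01977, a marker shape for each library number and bars for the mean ± SD (n = 3) where drawn. The left plot holds the 4 genes past the filter and the right plot, on a smaller scale, the 5 genes under it. HES6 is the gene on the left whose groups do not overlap.

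HES6 was the only one of the 9 genes called in the comparison of sh-LINC01977 with sh-NC cells. Its FPKM levels were 6.35, 5.53 and 7.17 under sh-NC and 4.40, 5.16 and 4.67 under sh-LINC01977. Each knockdown library lay below each control library. The raw counts behind these levels were 901, 701 and 1077 in sh-NC and 598, 785 and 584 in sh-LINC01977. In CPM (counts scaled to library size with TMM factors), HES6 fell from 16.3 ± 2.05 to 11.7 ± 1.06 (SD, n = 3 each), a 1.40-fold decrease. The TMM factors were 0.966 to 0.987 in sh-NC and 1.01 to 1.04 in sh-LINC01977, and FPKM do not include them. Log2 fold changes from edgeR therefore differ slightly from ratios of mean FPKM. On the log2 scale HES6 fell by 0.48 (standard error 0.126, 95% confidence interval -0.78 to -0.18), and edgeR's quasi-likelihood test, adjusted over all tested genes by the Benjamini-Hochberg method, gave an adjusted p of 0.048. The exact two-sided permutation test gave p = 0.1, the smallest that 3 libraries against 3 allow. Of the tested genes, 7.58% had a lower log2 fold change than HES6. The call was close to the threshold and was lost in the fit of all listed genes (adjusted p = 0.0865 from edgeR) and without sh-NC replicate 1 or 3 or any 1 of the sh-LINC01977 libraries (adjusted p of 0.0691 to 0.134 from edgeR), with the value lower throughout. In bulk RNA, fewer cells that express a gene and less of its RNA per cell cannot be told apart, and the labels do not say that the libraries came from separate cultures, so the p-values measure the spread between libraries, which may be technical.

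**Figure D2:**
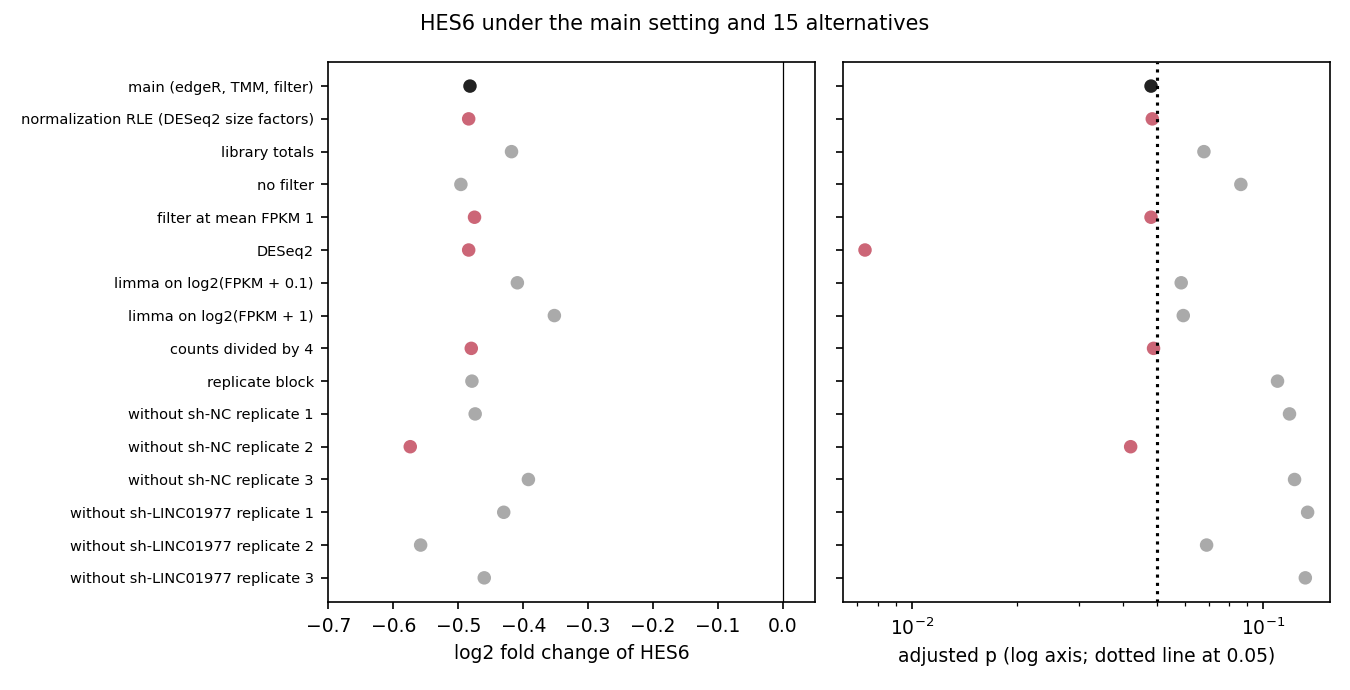
HES6 under the main setting (black) and 15 alternatives (rows), with its log2 fold change on the left and its adjusted p on a log axis on the right, where the dotted line marks 0.05. All log2 fold changes are below 0, from -0.57 to -0.35, and 5 of the 15 alternatives (red) have an adjusted p under 0.05.

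HES6 (ENSG00000144485) lies on the minus strand of chromosome 2 at 238238267 to 238240662 (GRCh38), inside an intron of AC012485.1 on the opposite strand. None of the exons of AC012485.1 overlapped HES6, and its counts were 0, 5 and 0 in sh-NC and 4, 0 and 0 in sh-LINC01977. Whether the counting used strand is not given in the sources used here.

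HES1, the main effector of Notch signaling in many tissues, showed no detectable difference. Its FPKM levels were 7.64, 7.70 and 6.72 in sh-NC and 7.07, 9.09 and 8.46 in sh-LINC01977. The groups overlapped, since the first knockdown library lay below 2 control libraries. Mean FPKM was 7.35 ± 0.553 and 8.21 ± 1.04 (SD, n = 3 each). On the log2 scale the difference was 0.10 (standard error 0.121, edgeR adjusted p = 0.642). Its 95% confidence interval ran from -0.19 to 0.38, which allows anything from 0.874 to 1.31 times the control level. HES1 (ENSG00000114315) lies on the plus strand of chromosome 3 at 194136145 to 194138732.

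HES4, a close relative of HES1, had FPKM levels of 2.76, 3.03 and 2.76 in sh-NC and 2.64, 3.59 and 3.13 in sh-LINC01977. The knockdown libraries lay on either side of the controls. Its log2 fold change was 0.07 (95% confidence interval -0.33 to 0.46, adjusted p = 0.825 from edgeR), or 0.797 to 1.38 times the control level. HES4 (ENSG00000188290) lies on the minus strand of chromosome 1 at 998962 to 1000172. Across the 6 libraries the log2 CPM of HES4 and HES1 had a Pearson correlation of 0.90, given as a description of libraries that share their scaling. Both genes were highest in the second sh-LINC01977 library.

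NRARP, the feedback inhibitor, also showed no detectable difference. It had 4.50, 3.96 and 4.07 FPKM in sh-NC and 4.62, 4.71 and 3.84 FPKM in sh-LINC01977. The ranges overlapped, with the lowest value in a knockdown library. Its log2 fold change was 0.01 (95% confidence interval -0.30 to 0.32, adjusted p = 0.975 from edgeR), which allows 0.813 to 1.25 times the control level. NRARP (ENSG00000198435) is a gene of 1 exon on the minus strand of chromosome 9 at 137300482 to 137302251.

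**Figure D3:**
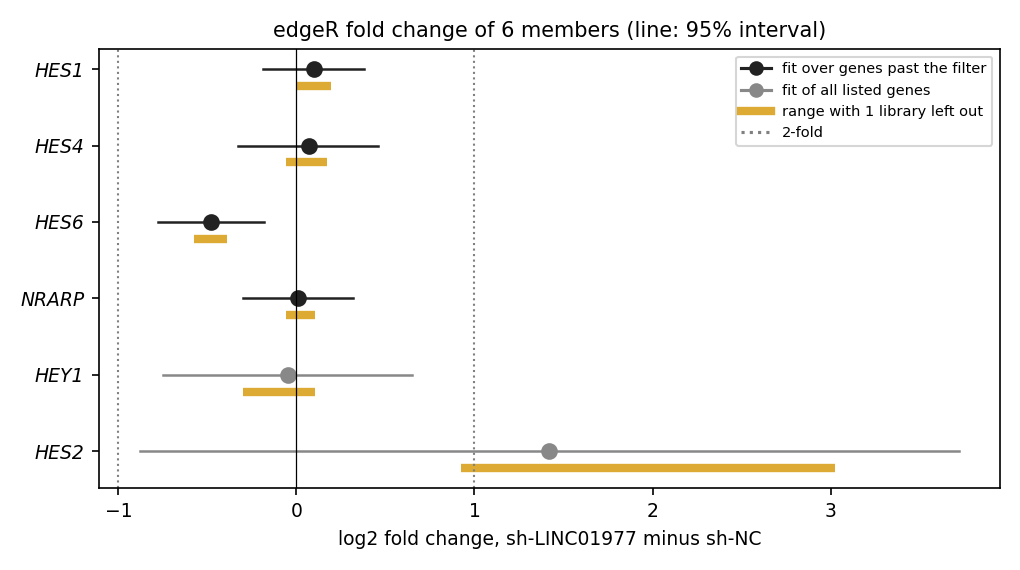
Log2 fold change (horizontal axis, sh-LINC01977 minus sh-NC) of 6 of the genes, with points for edgeR estimates (black for the fit over genes past the filter, grey for the fit of all genes), thin lines for 95% confidence intervals, thick yellow lines for the range with 1 library left out and dotted lines at a 2-fold change. The interval of HES6 lies below 0, from -0.78 to -0.18, and those of HES1, HES4 and NRARP span 0.

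Counted over the genes past the filter, 0 of 4 were higher and 1 of 4 was lower at an adjusted p under 0.05 (edgeR), where the shares of all 13452 tested genes were 7.05% higher and 8.07% lower. At an unadjusted p under 0.05, edgeR again gave HES6 alone, a threshold that 30.5% of the tested genes passed. By DESeq2, 0 of 4 were likewise higher and HES6 was lower, where DESeq2 called 10.5% of the genes with an adjusted p higher and 11.5% lower. None of the 4 passed a fold change of 2 with an unadjusted P of 0.05, which 2.6% of the tested genes did. The libraries of the 2 groups did not overlap for 1 of 4, against 37.1% of all tested genes, so this separation was frequent in the comparison. The median log2 fold change of the 4 genes was 0.04, beside -0.001 over all tested genes. In the fit of all listed genes, 0 of 9 had an adjusted p under 0.05 (edgeR), against 5.36% of genes, and 1 of 9, HEY2, passed the fold change of 2 with P of 0.05, against 3.71%.

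Among the 5 genes under the filter, HEY1, a repressor known from the heart and vessels, had the highest level. Its FPKM levels were 0.455, 0.486 and 0.244 in sh-NC and 0.455, 0.338 and 0.397 in sh-LINC01977. The knockdown values lay within the control range. The log2 fold change was -0.05 (95% confidence interval -0.75 to 0.65, adjusted p = 0.957 from edgeR), so changes from 0.593 to 1.57 times the control level were not excluded. HEY1 is ENSG00000164683, on the minus strand at 79764010 to 79767863 of its chromosome.

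HES2, a repressor of the same family (ENSG00000069812, chromosome 1, minus strand, 6412418 to 6424670), varied widely between replicates. Its counts were 81, 5 and 18 in sh-NC and 130, 149 and 17 in sh-LINC01977. In each group 1 library stood apart, the first of sh-NC being high and the last of sh-LINC01977 low. The fitted difference of 1.42 on the log2 scale (standard error 0.985) did not pass the test (edgeR adjusted p = 0.46), nor did the 3.03 found without sh-NC replicate 1 (edgeR adjusted p = 0.188).

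HEY2, a repressor known from the heart and arteries (ENSG00000135547, chromosome 6, plus strand, 125747664 to 125761269), was listed with counts of 0, 0 and 0 in sh-NC and 4, 6 and 4 in sh-LINC01977. The 14 counts of the knockdown libraries against an assumed floor of 3 counts over the control group give a CPM ratio of 4.49. This ratio depends on the assumed floor and is not a lower bound of the change. HEY2 was not called (adjusted p = 0.199 from edgeR over all genes), and its edgeR confidence interval ran from 1.92 to 729 times the control level. In the table as a whole a count of 4 was more frequent (8101 gene and library pairs) than 3 (2780) or 5 (1758), and a unit of count is therefore not necessarily 1 fragment. HEY2 also overlaps AL365259.1 on the opposite strand, which had counts of 0, 0 and 4 in sh-NC and 0 in each sh-LINC01977 library.

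HES7, the segmentation clock repressor (ENSG00000179111, chromosome 17, minus strand, 8120590 to 8124092), had counts of 4, 0 and 0 in sh-NC and 6, 8 and 0 in sh-LINC01977. HEYL, the other HEY repressor (ENSG00000163909, chromosome 1, minus strand, 39624153 to 39639945), had counts of 8, 0 and 4 in sh-NC and 0, 10 and 12 in sh-LINC01977. Both genes overlapped between groups, with adjusted p of 0.678 for HES7 and 0.825 for HEYL from edgeR. No library had more than 12 counts of either gene, so a change could be read only with little precision.

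The genes past the filter had the shorter gene bodies of the 9, a feature that was not compared over all listed genes. HES1, HES6, NRARP and HES4 span 2588, 2396, 1770 and 1211 bases, whereas HES7, HEY1, HES2, HEY2 and HEYL span 3503 to 15793 bases. By the longest transcript the split did not hold, at 1674 bases for HES7 and 1770 for NRARP. In the annotation deposited with the counts, a Gene Ontology term for Notch signaling was attached to 6 of the 9 genes, HES1, HES7, HEY1, HEY2, HEYL and NRARP. The KEGG Notch pathway, with 44 listed genes, held only HES1 of the 9. HES6, the gene that was lower, was in neither set.

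The balance among the 9 genes was then compared within libraries, a measure chosen after the values were seen. The summed FPKM of the 9 genes was 21.2 ± 0.652 in sh-NC and 21.2 ± 1.95 in sh-LINC01977 (SD, n = 3 each). HES6 made up 29.9 ± 3.8% of that sum in sh-NC and 22.4 ± 0.289% in sh-LINC01977, with no overlap, and HES1 made up 34.6 ± 2.61% and 38.7 ± 2.50%, with overlap. The FPKM ratio of HES1 to its antagonist HES6 was 1.2, 1.39 and 0.937 in sh-NC and 1.61, 1.76 and 1.81 in sh-LINC01977. Every knockdown library had a higher ratio than every control library, a log2 difference of 0.57 (p = 0.1 by the exact permutation test, its smallest value). The ratio of HES4 to HES6 was also separate, at 0.456 ± 0.0834 and 0.656 ± 0.05. Both ratios and the HES6 share contain HES6, so they restate its lower level and are not separate evidence. In contrast, the ratio of HES1 to HES4 was 2.58 ± 0.174 and 2.64 ± 0.0929 and overlapped between groups (exact two-sided permutation test, p = 0.7).

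**Figure D4:**
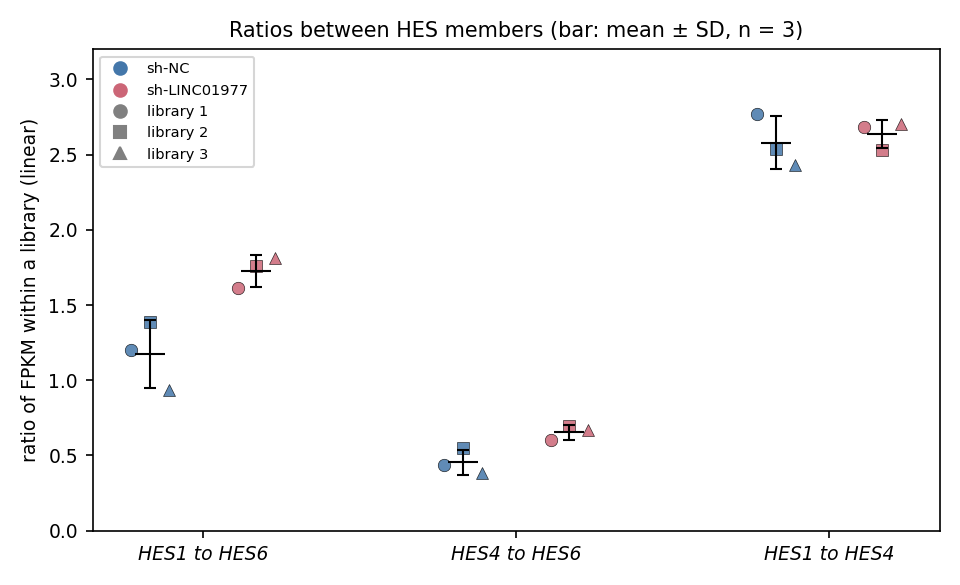
FPKM ratios of pairs of HES genes (vertical axis, linear), with blue points for sh-NC libraries, red points for sh-LINC01977 libraries, a marker shape for each library number and bars for the mean ± SD (n = 3). HES1 to HES6 runs from 0.937 to 1.39 in sh-NC and from 1.61 to 1.81 in sh-LINC01977, whereas HES1 to HES4 overlaps.

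The genes that act before the HES and HEY genes were read from a list of 48 Notch receptors, ligands, proteases, modifiers and nuclear cofactors. They were chosen by function, with earlier results of these data known. Of these, 46 were listed in the table and 35 were tested, and 6 were higher and 4 were lower at an adjusted p under 0.05 (edgeR), beside 7.05% and 8.07% of all tested genes. Their log2 fold changes had a median of 0.10, beside -0.001 over all tested genes. Among ligands, JAG1 had 15.6, 15.7 and 16.3 FPKM in sh-NC and 25.0, 24.8 and 26.9 FPKM in sh-LINC01977, a rise of 0.62 on the log2 scale (adjusted p = 7.42e-04 from edgeR). RBPJ, the DNA-binding partner of Notch, rose from 3.26 ± 0.133 to 4.57 ± 0.109 FPKM (SD, n = 3 each; log2 fold change 0.42, adjusted p = 0.00423 from edgeR). The receptor NOTCH2 fell from 2.06 ± 0.0694 to 1.65 ± 0.0905 FPKM (log2 fold change -0.38, adjusted p = 0.0115 from edgeR), a call that was lost with limma on log2(FPKM + 0.1) (adjusted p = 0.0668) and on log2(FPKM + 1) (adjusted p = 0.0701). LFNG, which adds sugars to Notch receptors, rose by 1.10, the ubiquitin ligase MIB1, which activates ligands, by 0.46, the protease FURIN by 0.45 and the gamma-secretase subunit PSENEN by 0.39 on the log2 scale. The coactivators MAML1 and CREBBP and the methyltransferase KMT2D fell, with log2 fold changes of -0.35, -0.39 and -0.22 (edgeR adjusted p of 0.0205, 0.0124 and 0.0297). In the fit of all listed genes the calls of PSENEN and KMT2D were lost (edgeR adjusted p of 0.0983 and 0.0661). The receptors NOTCH1, NOTCH3 and NOTCH4 lay under the filter. In the fit of all genes their log2 fold changes were 0.56, 1.18 and 1.41, and of these receptors NOTCH4 alone passed (edgeR adjusted p = 0.0163). The ligand JAG2, also under the filter, passed in that fit (log2 fold change 1.68, edgeR adjusted p = 0.0233). Its counts were 23, 16 and 26 in sh-NC and 57, 83 and 76 in sh-LINC01977. Of all listed genes, 5.36% passed in that fit.

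**Figure D5:**
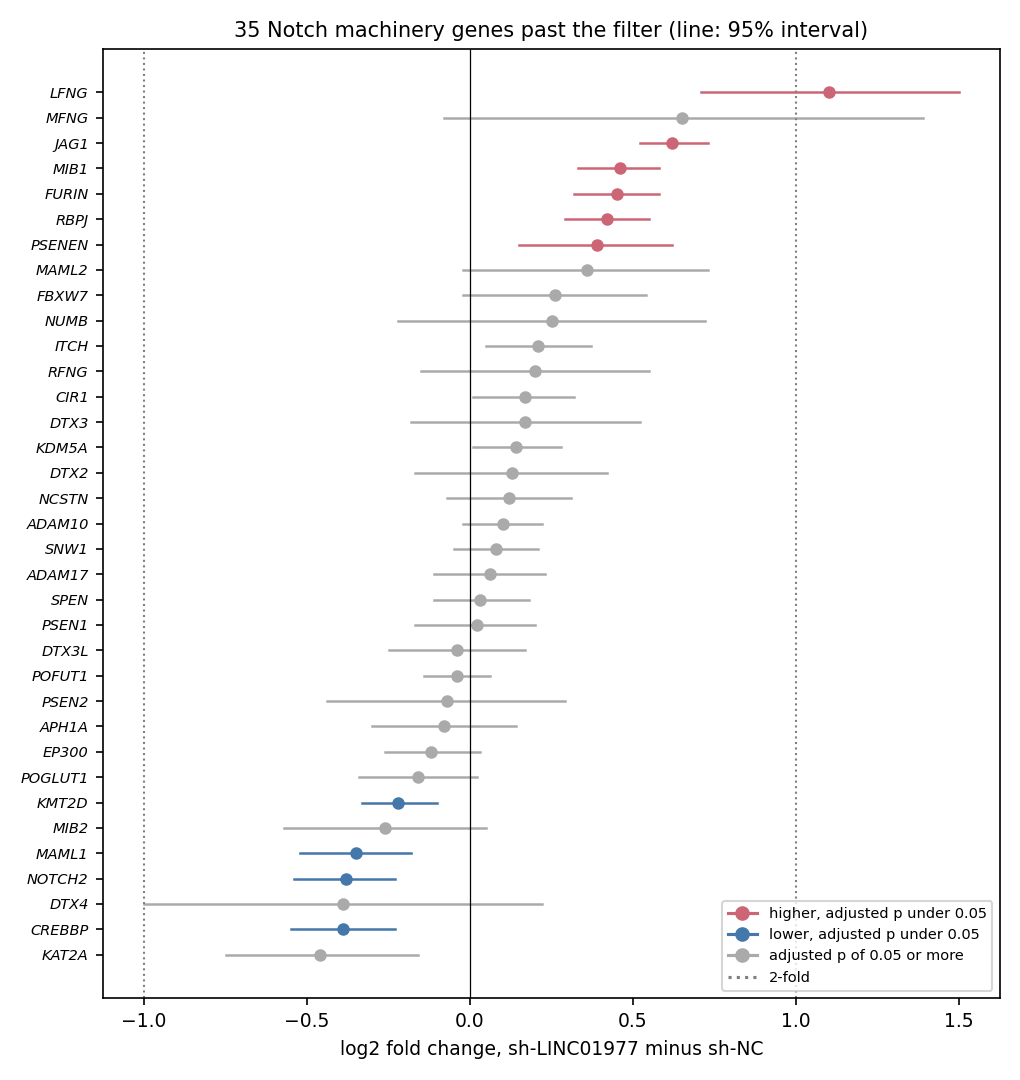
Log2 fold change (horizontal axis, sh-LINC01977 minus sh-NC) of the 35 tested Notch machinery genes, ordered by value, with points for edgeR estimates, lines for 95% confidence intervals and dotted lines at a 2-fold change. LFNG, JAG1, MIB1, FURIN, RBPJ and PSENEN (red) were higher and NOTCH2, MAML1, CREBBP and KMT2D (blue) lower at an adjusted p under 0.05, and the other genes are grey.

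Of the corepressors and partners through which HES and HEY proteins act, 14 corepressors were listed and 10 tested, with 2 higher, 1 lower and a median log2 fold change of 0.02. Over all tested genes 7.05% were higher and 8.07% lower, which is the background of each list named here. TLE1, a Groucho corepressor, fell from 19.7 to 16.0 FPKM (log2 fold change -0.36, adjusted p = 0.00748 from edgeR), whereas its paralog TLE3 rose by 0.54 and the corepressor scaffold SIN3A by 0.24 on the log2 scale (adjusted p of 0.0368 and 0.0212 from edgeR). Both of the latter calls were lost in the fit of all listed genes (edgeR adjusted p of 0.0763 and 0.0644). Of 5 tested helix-loop-helix partners (median log2 fold change 0.24), 1 was called, TCF3, the E protein, with a rise of 0.32 (adjusted p = 0.0322 from edgeR, and 0.0803 in the fit of all listed genes). The inhibitors ID1, ID2 and ID3 had log2 fold changes of 0.15, -0.14 and 0.28 and did not pass the test. Of 4 tested genes that HES or HEY proteins are known to repress, 0 were called by edgeR at an adjusted p under 0.05 and 2, CDKN1A and CDKN1B, at an unadjusted p under 0.05, against 30.5% of all tested genes, and the median was -0.04. CDKN1A and CDKN1B encode inhibitors of the cell cycle and had log2 fold changes of -0.27 and 0.18. Of 6 other tested Notch targets, which include CDKN1A again, 2 were called and the median was -0.25. CCND1, which encodes cyclin D1, rose by 0.24 (adjusted p = 0.0117 from edgeR), and SOX9, a bile duct regulator, fell by 0.24 (adjusted p = 0.0487 from edgeR, and 0.0817 in the fit of all listed genes). MYC, in the same list, was not called, and its counts were 9411, 8727 and 9976 in sh-NC and 8728, 9778 and 373 in sh-LINC01977, so that replicate 3 stood far below the other knockdown libraries. Of 3 listed relatives of the HES and HEY genes, 1, BHLHE40, was tested, and its log2 fold change was 0.31 (edgeR adjusted p = 0.477). HES5, the other classical HES target, had counts of 0, 0 and 0 in sh-NC and 8, 4 and 0 in sh-LINC01977.

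The genes most like 3 of the members across the 6 libraries were also listed, by Pearson correlation of log2 CPM over tested genes and as a description only. For HES1 they were ZNF274, ATAD5 and ATG3 (0.987, 0.984 and 0.979), for HES6 MIR616, AC020763.4 and TBC1D25 (0.997, 0.994 and 0.994) and for HEY1 AMDHD2, PGS1 and TMEM106A (0.987, 0.981 and 0.975). A correlation of at least 0.9 was found for 425 genes with HES6, 52 with HES1 and 58 with HEY1. HES1 and HES6 had a correlation of -0.24 with each other. All 6 points share the difference between groups.

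Marker genes of the cell line moved beside these results. The summed FPKM of 7 hepatocyte markers was 3740 to 4090 in sh-NC and 2500 to 2570 in sh-LINC01977, with 6 of 7 lower at an adjusted p under 0.05 (edgeR). The sum of 6 bile duct markers was 663 to 705 and 609 to 629, with KRT19 higher and SPP1 and SOX9 lower. SPP1 was the largest part of this sum, with a mean FPKM of 447 in sh-NC and 309 in sh-LINC01977. KRT19, the next largest, rose from 151 to 234, so the lower sum follows SPP1 and does not describe each marker. The 6 mesenchymal markers summed to 20.1 to 20.3 and 20.8 to 25.9, with PDGFRB higher at an adjusted p under 0.05. COL1A1 had 2.62, 3.37 and 2.16 FPKM in sh-NC and 5.65, 4.52 and 3.98 FPKM in sh-LINC01977. Its log2 fold change of 0.73 lay just outside the threshold (edgeR adjusted p = 0.0504). VIM had FPKM levels of 0.126, 0.255 and 0.16 in sh-NC and 0.102, 0.0708 and 0.012 in sh-LINC01977 (not called), ACTA2 had a log2 fold change of -0.08, and COL3A1 was at 0 in each library but 1 of sh-LINC01977. The 3 endothelial markers summed to 0.266 to 0.441 and 0.22 to 0.315. The 3 blood cell markers summed to 625 to 632 and 542 to 557, almost all of it LYZ, and the defining marker PTPRC was near 0. The part of these shifts in the lower HES6 level was not tested.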

How the data were processed

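RNA of 6 HepG2 libraries (3 sh-NC, 3 sh-LINC01977, grouped by their labels) was sequenced. The authors deposited, for every gene, raw whole-number counts. Beside them the authors deposited FPKM values, which divide fragments by transcript length and library size. The submitters' processing notes list bcl2fastq 2.0, HISAT2, StringTie, DESeq2, limma and hg38, without roles; the counting tool, annotation and use of strand are not given in the sources used here. The 9 genes have the same start and end in GENCODE 29.

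Counts were tested with edgeR 4.0.16 in R 4.3.3 (TMM scaling, quasi-likelihood test, p-values adjusted by Benjamini-Hochberg) over the 13452 genes whose mean FPKM reached 0.5. Genes under the filter, which hold 0.422% to 0.514% of the counts, were read from a fit of all 29153 genes. The members and lists were chosen with earlier results of these data known. Named from the lists were genes with an adjusted p under 0.05, receptors, RBPJ and ligands past the filter, defining markers, and the 3 genes most correlated with HES1, HES6 and HEY1. HES5, BHLHE40, MYC, VIM, ACTA2, COL1A1, CDKN1A, CDKN1B and the ID genes were named after their values were seen. Replicates differed beyond sampling noise. The scripts were tested on simulated data. Alternatives were library totals or RLE scaling, other filters, limma 3.58.1 on log2(FPKM + 0.1) or log2(FPKM + 1), DESeq2 1.42.0, counts divided by 4, a replicate block and leaving out each library. Promoters are RefSeq sequences of GRCh38.p14.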

Additional observations from a re-analysis of the deposited data

How the results depend on the processing

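HES6 stayed lower under all 15 alternatives (log2 fold change -0.57 to -0.35), but its adjusted p was under 0.05 in only 5 of them. The count of members at an adjusted p under 0.05, 1 in the main analysis, was 0 with library totals (HES6 -0.42, adjusted p = 0.0679 from edgeR), with no filter (-0.50), with limma on log2(FPKM + 0.1) (-0.41) or log2(FPKM + 1) (-0.35) and with the replicate block (-0.48, adjusted p = 0.110 from edgeR), and 0 to 1 with 1 library left out (-0.57 to -0.39). The numbers gave no sign of pairing, since same-numbered libraries had correlations of their deviations between -0.034 and 0.061. With so few libraries these values cannot exclude a shared batch, which the labels do not give. DESeq2 gave HES6 an adjusted p of 0.00736. Members past a fold change of 2 went from 0 to 1, HEY2, with no filter. Genes higher and lower, 948 and 1085, were 1455 and 768 with library totals and 1269 and 729 with limma on log2(FPKM + 0.1), and 549 to 669 higher and 627 to 738 lower with 1 library left out, with fewer samples. Notch machinery genes called went from 10 to 6 to 9 with 1 library left out, 6 without sh-LINC01977 replicate 2 or 3. HEY1, -0.05 in the main analysis, turned to 0.024 with library totals, 0.038 and 0.006 with limma on the smaller and larger pseudocount, and ranged from -0.30 to 0.10 with 1 library left out. NRARP turned to -0.004 with no filter and ranged from -0.057 to 0.105 with 1 library left out, and HES4 from -0.058 to 0.174. The cause of these changes was not tested. HEY2, HES7 and HEYL had at most 12 counts in any library, and their values are limited by depth.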
